A study of Mus musculus with 7 samples.

Results

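The miR-148 and miR-152 family comprises 3 hairpin genes of the mouse, mmu-mir-148a, mmu-mir-148b and mmu-mir-152, which were followed through small RNA libraries of cultured HL-1 cells, an immortalised mouse atrial cardiomyocyte line. The members were chosen by name. Every deposited tag (a distinct sequence read with its count) was placed at its best ungapped match over all mouse hairpins, and a tag belonged to the family when that match lay on 1 of the 3 hairpins. The family took 103962 of 41180989 tags (0.252%), and it made up 3 of 689 hairpins with any tag. HL-1 cells, with no treatment and no transgene named in the labels, were seeded sparsely and harvested after 1, 2, 3 or 4 days, while cultures passed from still to beating. There were 2 libraries for day 1, 1 for day 2, 2 for day 3 and 2 for day 4, and replicate numbers were read as the study's independent repeats of the culture, called time course 1 and time course 2 here (the single day 2 library carries number 2). The labels speak only of biological duplicates, so this reading is inferred. All libraries come from 1 cell line, which descends from an atrial tumour of a mouse carrying a viral T antigen, so the values describe cultured atrial cells and no heart tissue.

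A microRNA is cut from a hairpin by Drosha and Dicer as a duplex. One strand, the mature miRNA, is kept in an Argonaute protein and pairs with mRNAs through its seed, while the passenger strand (miR*) is mostly discarded. Mature miR-148a, miR-148b and miR-152 come from the 3′ arm and share their seed, so they are thought to pair with overlapping sets of mRNAs. Members of the family are known to repress DNMT1 (a DNA methyltransferase) in human cells, and miR-148a is known to promote differentiation of mouse myoblasts through ROCK1.

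The 6 strands are given 5′ to 3′ as RefSeq holds them (GRCm38.p6), with the seed (bases 2 to 8) in capitals, because the shared seed and the few differing bases define the family.
miR-148a: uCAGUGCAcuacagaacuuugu
miR-148b: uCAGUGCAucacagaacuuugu
miR-152: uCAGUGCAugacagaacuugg
miR-148a*: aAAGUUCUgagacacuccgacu
miR-148b*: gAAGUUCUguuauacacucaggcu
miR-152*: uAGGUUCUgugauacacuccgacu

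All 3 mature strands carry the seed CAGUGCA, and no other annotated mouse strand in the sequence table carried it. miR-148a and miR-148b were identical at 20 of 22 bases, and the substitutions were C9U and U10C (positions counted from 1 at the 5′ end, miR-148a's base first). From miR-148a to miR-152 the substitutions were C9U, U10G and U20G, and from miR-148b to miR-152 they were C10G and U20G. The passenger strands were less alike. miR-148a* and miR-148b* share the seed AAGUUCU, whereas miR-152* has AGGUUCU, a difference from miR-148a* of A3G within the seed. miR-148b* and miR-152* were identical at 19 of 24 bases, miR-148a* and miR-148b* at 13 of 22.

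The hairpins below show where both strands lie, with the annotated strands in capitals and the flanks and loop in lower case.
mmu-mir-148a: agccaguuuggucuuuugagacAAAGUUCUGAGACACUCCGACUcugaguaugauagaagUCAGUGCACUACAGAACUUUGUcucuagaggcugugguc
mmu-mir-148b: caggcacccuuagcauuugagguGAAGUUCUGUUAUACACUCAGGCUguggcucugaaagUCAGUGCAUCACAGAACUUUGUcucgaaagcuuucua
mmu-mir-152: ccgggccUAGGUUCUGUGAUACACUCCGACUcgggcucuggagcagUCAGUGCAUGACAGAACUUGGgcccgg

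In GRCm38, mmu-mir-148a lies at chr6:51269812-51269910 on the minus strand and overlaps no other gene of GENCODE M21. Its nearest protein-coding gene, Nfe2l3, is 162760 bases away. mmu-mir-148b lies at chr15:103285125-103285221 on the plus strand, within an intron of Copz1, and mmu-mir-152 at chr11:96850393-96850465 on the plus strand, within an intron of Copz2. Copz1 and Copz2 encode paralogous zeta subunits of the COPI vesicle coat and run on the same strand as their miRNAs. The files hold no mRNA, so the host transcripts were not measured. RNAfold gave minimum free energies of -41.0 kcal/mol for mmu-mir-148a, -30.9 kcal/mol for mmu-mir-148b and -43.5 kcal/mol for mmu-mir-152. In the predicted folds all 4 leading bases of miR-148a and miR-152 were paired, against 1 of 4 for miR-148b.

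Each library held between 4945112 and 6899476 tags on miRNA hairpins. Cardiac muscle miRNAs (miR-1, miR-133a, miR-208a and miR-499) took 9.37% ± 0.778 of tags (SD, n = 7 libraries). Markers of hepatocytes (miR-122), blood cells (miR-142, miR-144, miR-223 and miR-451), fibroblasts (miR-199a and miR-214), neurons (miR-124 and miR-9) and epithelium (the miR-200 group) were at 0.000253%, 0.003%, 0.000972%, 0.00228% and 0.000863% of tags on average. miR-126, which marks endothelium, was at 0.0736%, and it lay between 0.0481% and 0.0919% in the 7 libraries. Levels are given as CPM, tag counts scaled to the sum of a library's deposited tags. They are therefore relative to all miRNA tags, and a change in the total amount of miRNA per cell would not show in them.

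miR-148a was the most abundant member, followed by miR-152 and miR-148b, and each passenger strand was below its own mature strand. miR-148a had 1157 CPM on day 1, 2055 CPM on day 3 and 1801 CPM on day 4 of time course 1. In time course 2 it had 540 CPM on day 1, 1151 CPM on day 2, 1384 CPM on day 3 and 2039 CPM on day 4. Its mean was 1447 ± 554 CPM (SD, n = 7), which ranked it 74 among 405 miRNA strands with at least 150 tags.

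miR-152 had 714 CPM on day 1, 931 CPM on day 3 and 853 CPM on day 4 of time course 1. In time course 2 it had 315 CPM on day 1, 578 CPM on day 2, 463 CPM on day 3 and 837 CPM on day 4. It averaged 670.1 ± 227 CPM (SD, n = 7) and ranked 110. The lowest library of miR-152, day 1 of time course 2, was also the lowest for miR-148a and miR-148b.

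miR-148b had 249 CPM on day 1, 383 CPM on day 3 and 253 CPM on day 4 of time course 1. In time course 2 it had 138 CPM on day 1, 253 CPM on day 2, 218 CPM on day 3 and 298 CPM on day 4, with a mean of 256 ± 74.7 CPM (SD, n = 7) and rank 161. Across libraries the range of miR-152 overlapped those of miR-148a and miR-148b, which did not overlap each other, and the order of the 3 mature strands was the same in 7 of 7 libraries.

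Among the passenger strands miR-152* was the steadiest, with 93.4, 79.3 and 73.4 CPM on days 1, 3 and 4 of time course 1 and 78.1, 76.8, 96.5 and 82.5 CPM on days 1 to 4 of time course 2 (82.9 ± 8.73 CPM, rank 208). On the same days miR-148b* had 42.9, 33.5 and 34.2 CPM in time course 1, and time course 2 gave 51.8, 54.0, 65.8 and 44.9 CPM (46.7 ± 11.5 CPM, rank 235). For miR-148a* time course 1 gave 45.1, 27.2 and 29.5 CPM and time course 2 gave 23.4, 29.0, 33.5 and 23.6 CPM (30.2 ± 7.44 CPM, rank 262; each SD with n = 7). The order of the passenger strands thus differed from that of the mature strands, since miR-148a* was lowest on average while miR-148a was highest. miR-148a* and miR-148b* overlapped across libraries, and miR-148a* was the higher of the pair only on day 1 of time course 1. The coefficient of variation was 38.3% for miR-148a, 33.8% for miR-152 and 29.2% for miR-148b, and 24.7% for miR-148a*, 24.6% for miR-148b* and 10.5% for miR-152*.

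**Figure D1:**
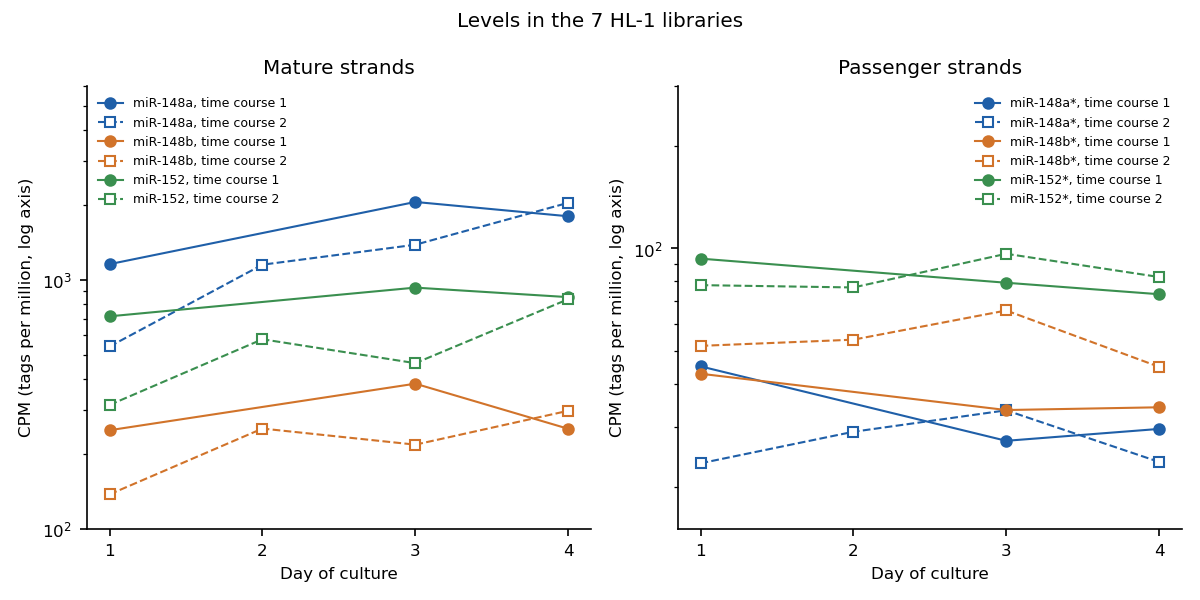
Levels of the 6 strands, in CPM on a log axis, against the day of culture. Filled circles joined by solid lines are time course 1 and open squares joined by dashed lines time course 2 (1 library a point). The mature strands (left) keep the order miR-148a, miR-152, miR-148b in every library, and day 1 of time course 2 is the lowest point of each, at 540, 315 and 138 CPM.

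Within each library miR-148a exceeded miR-148b by 2.44 ± 0.33 on the log2 scale (SD, n = 7; range 1.97 to 2.83) and miR-152 by 1.08 ± 0.30 (range 0.70 to 1.58), and miR-152 exceeded miR-148b by 1.36 ± 0.24 (range 1.09 to 1.75). Each of these ratios was above 0 in 7 of 7 libraries. The exact two-sided sign-flip permutation test gave p = 0.0156 for each, the smallest that 7 libraries allow, and p = 0.0167 after Benjamini-Hochberg adjustment over 15 such tests. The test takes each library as a separate unit, although libraries of 1 culture repeat are related. It measures how steady a difference in tag counts was over libraries. Whether strands of different sequence were captured equally well was not tested, here or for the strand shares below. Within time course 1 the log2 ratio of miR-148a to miR-152 ran between 0.70 and 1.14, and within time course 2 between 0.78 and 1.58.

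The make-up of the family's mature tags was a second view of the same counts that does not depend on the library total. miR-148a made up 54.6%, 61.0% and 62.0% of the 3 mature strands' tags on days 1, 3 and 4 of time course 1, and 54.4%, 58.1%, 67.0% and 64.2% on days 1 to 4 of time course 2. Both day 1 libraries thus had the lowest share of miR-148a. For miR-152 time course 1 gave 33.7%, 27.6% and 29.3% and time course 2 gave 31.7%, 29.2%, 22.4% and 26.4%. miR-148b made up the remaining 8.69% to 13.9%. The change of these shares with day was not tested. Together the mature strands took 0.237% ± 0.083 of library tags (SD, n = 7), with 0.0993% in the lowest library (day 1 of time course 2) and 0.337% in the highest (day 3 of time course 1).

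**Figure D2:**
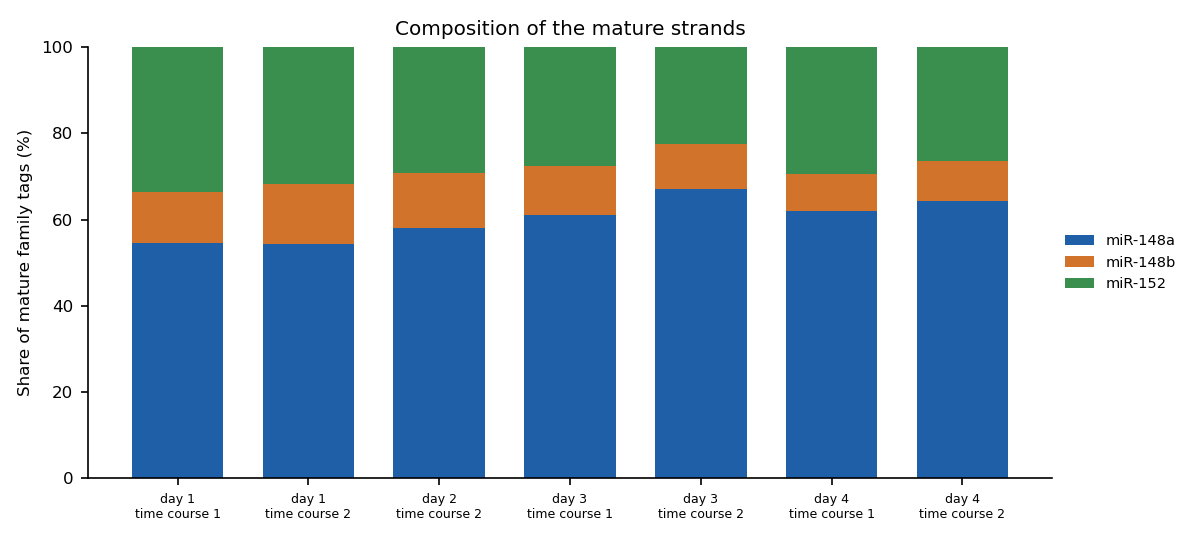
Share of the mature family tags (y axis, percent) held by miR-148a, miR-148b and miR-152 in each library, ordered by day and time course. miR-148a is the largest part of every bar and is lowest on day 1, at 54.6% and 54.4%.

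All 3 mature strands were higher on day 4 than on day 1, where 50.9% of all 580 strands had a positive log2 fold change. The day 4 and day 1 libraries of these 3 strands did not overlap. How many of all strands were separated in the same way was not counted. None of the 6 strands passed edgeR's test, which called 0% of all strands between these days. miR-148a had 1801 and 2039 CPM on day 4, against 1157 and 540 CPM on day 1. This is a 1.56-fold difference within time course 1 and a 3.77-fold difference within time course 2. edgeR's quasi-likelihood test gave a log2 fold change of 1.39 ± 0.43 (SE), with a Benjamini-Hochberg adjusted p = 0.373 over 580 strands. Leaving out the day 1 library of time course 2 lowered the log2 fold change to 0.94, and leaving out that of time course 1 raised it to 2.03. Over the 7 omissions of 1 library the adjusted p ran between 0.357 and 0.735.

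miR-152 had 853 and 837 CPM on day 4, against 714 and 315 CPM on day 1, which is 1.19-fold within time course 1 and 2.66-fold within time course 2. Its log2 fold change was 0.93 ± 0.50 (SE; edgeR, adjusted p = 0.565), and 0.45 without the day 1 library of time course 2 or 1.63 without that of time course 1. miR-148b had 253 and 298 CPM on day 4, against 249 and 138 CPM on day 1, so its libraries were separated by a narrow gap. It was 1.01-fold within time course 1 and 2.16-fold within time course 2, with a log2 fold change of 0.72 ± 0.44 (SE; edgeR, adjusted p = 0.595) and of 0.35 without the day 1 library of time course 2 or 1.20 without that of time course 1. For all 3 mature strands the difference was larger in time course 2, whose day 1 library was the lowest.

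The passenger strands differed less between the same days. The log2 fold change of day 4 over day 1 was -0.16 for miR-148a*, -0.046 for miR-148b* and 0.074 for miR-152*, with adjusted p between 0.956 and 0.984 (edgeR). The day 4 and day 1 libraries overlapped for each passenger strand. miR-152*, for example, had 73.4 and 82.5 CPM on day 4, against 93.4 and 78.1 CPM on day 1. The median log2 fold change was 0.93 over the 3 mature strands, -0.046 over the 3 passenger strands and 0.018 over all 580 strands tested, and 96% of all strands lay below miR-148a. edgeR called 0 of 6 members and 0 of 580 strands (0%) between day 4 and day 1. At an unadjusted p under 0.05 there were 62 strands, of which miR-148a was the only member, and DESeq2 called 5 strands and 0 members.

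**Figure D3:**
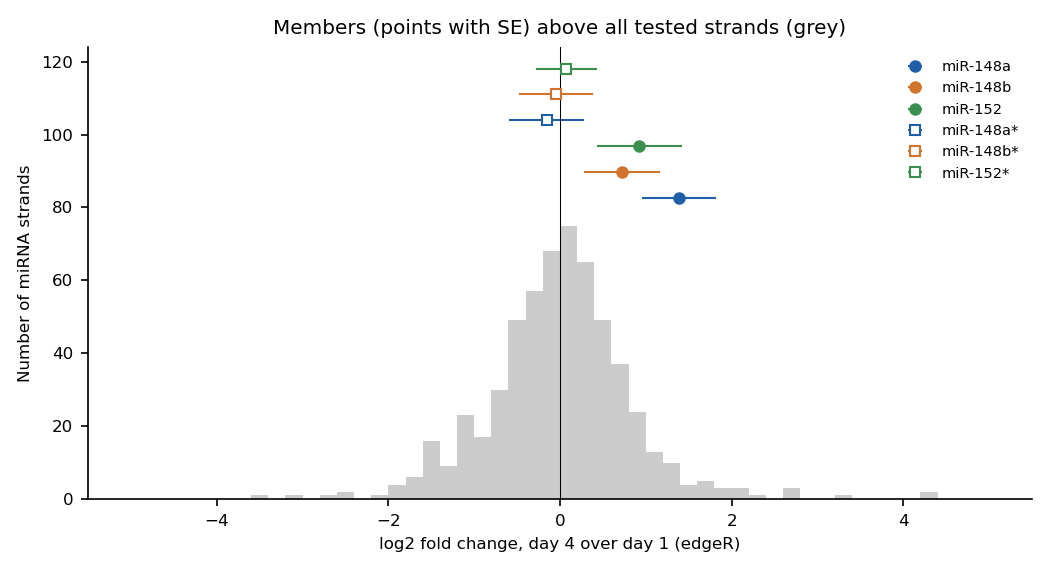
log2 fold change of day 4 over day 1 (x axis) for all 580 strands tested, as a grey histogram, with the 6 members above it as points with their SE. Filled circles are mature strands and open squares passenger strands. The mature strands lie at 1.39, 0.72 and 0.93, to the right of most strands, and the passenger strands lie near 0.

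On day 3 the mature strands also lay above day 1, by a log2 fold change of 1.19 ± 0.43 for miR-148a, 0.81 ± 0.45 for miR-148b and 0.61 ± 0.49 for miR-152 (SE). Their edgeR adjusted p were 0.864, 0.878 and 0.961. Without the day 3 library of time course 1 the values were 0.84, 0.31 and -0.017 for miR-148a, miR-148b and miR-152, and without that of time course 2 miR-152 was at 1.05. Without the day 1 library of time course 2 the 3 values were 0.73, 0.43 and 0.13, and without that of time course 1 they were 1.83, 1.29 and 1.31. The passenger strands were at -0.01, 0.23 and 0.20 for miR-148a*, miR-148b* and miR-152*. edgeR called 0 members and 0 of 580 strands (0%) on day 3, with 30 at an unadjusted p under 0.05, miR-148a among them, and DESeq2 called 4 strands and 0 members. The single day 2 library, assumed to vary like the others, lay at log2 fold changes of 0.37, 0.32 and 0.10 for miR-148a, miR-148b and miR-152 over day 1, and at -0.31, 0.12 and -0.23 for their passenger strands (edgeR adjusted p = 0.985 for each). Without the day 1 library of time course 2 the 3 mature values turned to -0.076, -0.047 and -0.37. Within time course 2 alone, day 2 was 2.13-fold, 1.84-fold and 1.83-fold above day 1 for miR-148a, miR-148b and miR-152. edgeR called 0 members and 0 of 580 strands (0%) on day 2, with 19 at an unadjusted p under 0.05 and 0 members among these, and DESeq2 called 1 strand, which was no member.

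Between the repeats of the culture the mature strands were lower in time course 2 and the passenger strands were not uniformly so. With day in the model, the log2 fold change of time course 2 over time course 1 was -0.76 ± 0.29 (SE) for miR-152, -0.52 ± 0.28 for miR-148a and -0.50 ± 0.30 for miR-148b, with edgeR adjusted p of 0.169, 0.299 and 0.344. It was 0.52 ± 0.25 for miR-148b*, -0.35 ± 0.29 for miR-148a* and 0.042 ± 0.24 for miR-152*, with adjusted p of 0.249, 0.491 and 0.92. No member was among the 20 of 580 strands (3.45%) that edgeR called between the time courses, and DESeq2, which called 43, gave miR-152 an adjusted p of 0.0525. The mature strands of time course 2 were lower on days 1 and 3. On day 4 miR-152 had 837 CPM in time course 2 and 853 CPM in time course 1, and miR-148a and miR-148b were higher in time course 2. Without the day 4 library of time course 1 the log2 fold changes were -1.16, -0.90 and -0.90 for miR-152, miR-148a and miR-148b, and edgeR called all 3 (adjusted p = 0.000696, 0.00687 and 0.0251), among 65 strands in all. Without that of time course 2 they were -1.13, -0.87 and -0.87 (adjusted p = 0.000962, 0.00973 and 0.0331), among 63 strands. With day in the model, a library left alone on its day is fitted by its own day term. Leaving out either library of a day thus takes that day out of the contrast between time courses. The 2 fits for a day are in effect the same omission and not separate checks. Leaving out a day 1 library made the differences smaller. Without that of time course 2 they were -0.55, -0.23 and -0.32 for miR-152, miR-148a and miR-148b (adjusted p = 0.442, 0.779 and 0.733), and without that of time course 1 they were -0.59, -0.27 and -0.36 (adjusted p = 0.486, 0.706 and 0.69), when edgeR called 0 strands in all. Without either day 3 library miR-148b was at -0.31, and 58 or 55 strands were called, none of them a member.

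The profiles of the mature strands over the 7 libraries were most like those of a few other miRNAs, given here as a description since all points share library and total. By Pearson's r of log2 CPM among 404 other strands, those nearest to miR-148a were miR-15a-3p (0.968), miR-24-5p (0.960) and miR-1187-5p (0.955). Nearest to miR-148b were miR-1187-5p (0.940), miR-152 (0.916) and miR-148a (0.905), and nearest to miR-152 were miR-99b-5p (0.984), miR-1927-5p (0.965) and miR-126a-3p (0.935). The third of these is the endothelial marker given above, the level of which moved with miR-152, and its part in the result was not tested. The r between miR-148a and miR-152 was 0.898. Each mature strand tracked its own passenger strand far less, with an r of 0.044 for miR-148a, -0.57 for miR-148b and -0.16 for miR-152.

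Other miRNAs known, in human cells, to target mRNAs of DNA methyltransferases were examined beside the family. Of the 8 (miR-29a-3p, miR-29b-3p, miR-29c-3p, miR-101a-3p, miR-126a-3p, miR-140-5p, miR-185-5p and miR-342-3p), 0 were called between day 4 and day 1 by edgeR (adjusted p between 0.42 and 0.989) and 0 by DESeq2. At an unadjusted p under 0.05 there was 1 of the 8, miR-126a-3p, against 62 of all 580 strands, so the list's share lay near that of all strands. Their log2 fold changes ran between 0.011 for miR-140-5p and 1.06 for miR-126a-3p, with a median of 0.33 against 0.018 over all strands. miR-29a-3p was the most abundant of them, at 33297 ± 7440 CPM (SD, n = 7), and miR-148a at 1447 CPM lay between miR-342-3p, at 2060 ± 987 CPM, and miR-101a-3p, at 893 ± 167 CPM.

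Strand use differed between the 3 hairpins although their mature strands are nearly alike. The passenger strand made up 16.5% ± 6.70 of generic tags (those starting within 3 nt of an annotated start) on mmu-mir-148b, 12.2% ± 4.70 on mmu-mir-152 and 2.40% ± 1.17 on mmu-mir-148a (SD, n = 7). On mmu-mir-148a it was 3.75%, 1.31% and 1.61% on days 1, 3 and 4 of time course 1 and 4.15%, 2.45%, 2.36% and 1.15% on days 1 to 4 of time course 2. The lowest of these libraries had a Wilson 95% interval of 0.983% to 1.33% and the highest one of 3.54% to 4.86% (these intervals cover counting error only).

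On mmu-mir-148b the passenger share on the same days was 14.7%, 8.05% and 11.9% in time course 1, against which time course 2 had 27.3%, 17.6%, 23.2% and 13.1% on days 1 to 4. Its highest library, day 1 of time course 2, had an interval of 24.8% to 29.9%. On mmu-mir-152 time course 1 had 11.6%, 7.85% and 7.92% and time course 2 had 19.9%, 11.7%, 17.2% and 8.97%, with an interval of 18.3% to 21.5% for its highest library, again day 1 of time course 2. The libraries of mmu-mir-148a, at 4.15% at most, lay below every library of the other two hairpins.

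Within libraries mmu-mir-148b exceeded mmu-mir-148a by 14.1 ± 5.93 percentage points and mmu-mir-152 exceeded mmu-mir-148a by 9.77 ± 3.91 points (SD, n = 7). mmu-mir-148b exceeded mmu-mir-152 by 4.37 ± 2.35 points, with a smallest gap of 0.198 points. Each held in 7 of 7 libraries (exact sign-flip permutation test, two-sided p = 0.0156, adjusted p = 0.0167).

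In each of the 3 hairpins both time courses had a smaller passenger share on day 4 than on day 1. Strand use was tested as log2 odds of 5′ arm to 3′ arm tags, which in these 3 hairpins are passenger to mature tags. Day 4 minus day 1, these odds were -1.57 ± 0.54 (SE) for mmu-mir-148a, -0.97 ± 0.62 for mmu-mir-152 and -0.83 ± 0.70 for mmu-mir-148b. Their median over 195 hairpins was 0.068. In many hairpins the 5′ arm holds the mature strand, so this median is no background for passenger use. With limma, adjusted p were 0.34, 0.577 and 0.704. The day 4 shares of mmu-mir-148a, 1.61% and 1.15%, did not overlap those of day 1, 3.75% and 4.15%, nor did those of the other hairpins. How many of the 195 hairpins had a lower share in both time courses, or no overlap, was not counted. The shares are drawn from the same tag counts as the levels above, so they are not a separate observation. limma called 0 of the 3 hairpins and 0 of 195 (0%), with 18 at an unadjusted p under 0.05, mmu-mir-148a among them. With the time course as a block limma called 2 hairpins, neither of them a member. For mmu-mir-148b the difference was -0.27 without the day 1 library of time course 2 and -1.39 without that of time course 1, and for mmu-mir-152 it was -0.50 and -1.43 without these libraries.

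**Figure D4:**
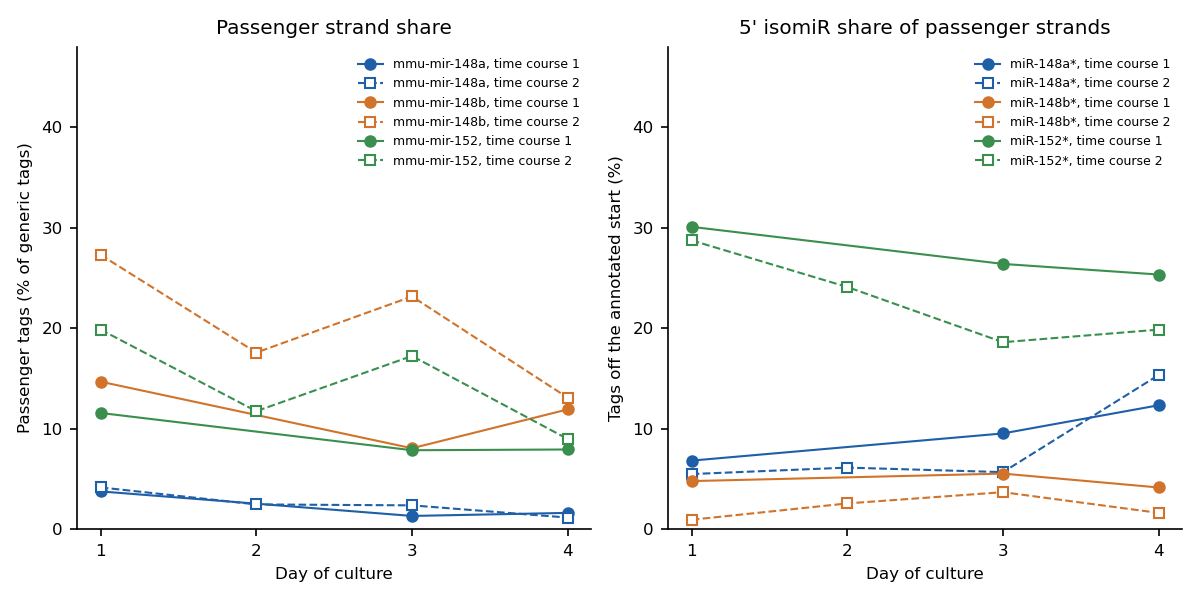
Left, the passenger strand's share of generic tags of each hairpin. Right, the share of each passenger strand's tags that start off the annotated start. Both are percentages against the day of culture, with filled circles for time course 1 and open squares for time course 2 (1 library a point). mmu-mir-148a stays at or below 4.15% on the left, and miR-152* lies between 18.6% and 30.1% on the right, above both other passenger strands in every library.

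Tags that start off the annotated start are 5′ isomiRs, which carry a shifted seed. They were rare for the mature strands, at 1.25% ± 0.209 of tags for miR-148a, 0.94% ± 0.424 for miR-148b and 2.01% ± 0.463 for miR-152 (SD, n = 7). The passenger strands were less uniform, at 8.75% ± 3.82 for miR-148a*, 3.32% ± 1.68 for miR-148b* and 24.7% ± 4.28 for miR-152*. The 5′ isomiRs of miR-152* nearly all started 1 nt further in, a form that held 842 of 3434 tags (24.5%). The annotated form, the main form with the later start, and the main form of miR-148a* that starts 1 nt early are shown with their seeds in capitals, since each start gives another seed.
miR-152*: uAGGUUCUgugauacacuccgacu
miR-152* starting 1 nt later: aGGUUCUGugauacacuccgacu
miR-148a* starting 1 nt earlier: cAAAGUUCugagacacuccgacu

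The later start of miR-152* moves the seed from AGGUUCU to GGUUCUG, which no annotated strand in the table carried. By library the 5′ isomiR share of miR-152* was 30.1%, 26.4% and 25.3% on days 1, 3 and 4 of time course 1 and 28.7%, 24.1%, 18.6% and 19.9% on days 1 to 4 of time course 2. The highest library had a Wilson 95% interval of 26.7% to 33.8% and the lowest one of 15.6% to 22.04%. miR-152* exceeded miR-148b* by 21.4 ± 4.26 percentage points and miR-148a* by 15.98 ± 6.59 points, and miR-148a* exceeded miR-148b* by 5.44 ± 4.20 points (SD; each in 7 of 7 libraries, exact sign-flip permutation p = 0.0156, adjusted p = 0.0167). Among the mature strands miR-152 exceeded miR-148b by 1.06 ± 0.495 points and miR-148a by 0.757 ± 0.463 points, again in 7 of 7 libraries with the same p. miR-148a and miR-148b differed by 0.308 ± 0.392 points, positive in 5 of 7 libraries, which did not pass the same exact test (p = 0.0938, unchanged by adjustment).

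For miR-148a* the 5′ isomiR share was higher on day 4, at 12.3% and 15.3%, than on day 1, at 6.82% and 5.48%. On day 3 the libraries of time courses 1 and 2 had 9.52% and 5.67%, and day 2 had 6.12%. Of its 1251 tags 99 started 1 nt early. Each library held only 146 to 308 tags of this strand, so the Wilson 95% interval of the highest library ran from 10.6% to 21.7% and that of the lowest from 2.80% to 10.4%. The difference of day 4 minus day 1 in log2 odds was 1.26 ± 0.34 (SE; limma, adjusted p = 0.417). The other 5 strands lay between -0.52 and 0.28, with adjusted p of 0.686 or more. limma called 0 of 6 members and 0 of 293 strands (0%), with 25 at an unadjusted p under 0.05, miR-148a* among them.

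Most tags of miR-148a and miR-148b were 3′ isomiRs, which end off the annotated end and keep the seed. The share was 60.1% ± 7.59 for miR-148a, 62.3% ± 6.38 for miR-148b and 38.3% ± 7.18 for miR-152 (SD, n = 7). It was 57.0% ± 7.57, 46.5% ± 4.15 and 47.7% ± 4.08 for miR-148a*, miR-148b* and miR-152*. The commonest forms of miR-148a were the annotated 22-nt form with 39.9% of tags and a 23-nt form, 1 base longer, with 26.7%. For miR-148b these were 35.3% and 21.9%. The annotated 21-nt form of miR-152 held 57.9% of its tags and a 22-nt form 15.7%. Tags longer than annotated made up 40.8% ± 5.20, 35.5% ± 4.35 and 29.7% ± 7.52 for miR-148a, miR-148b and miR-152, and shorter tags 19.4% ± 4.11, 26.9% ± 4.98 and 8.62% ± 0.959.

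**Figure D5:**
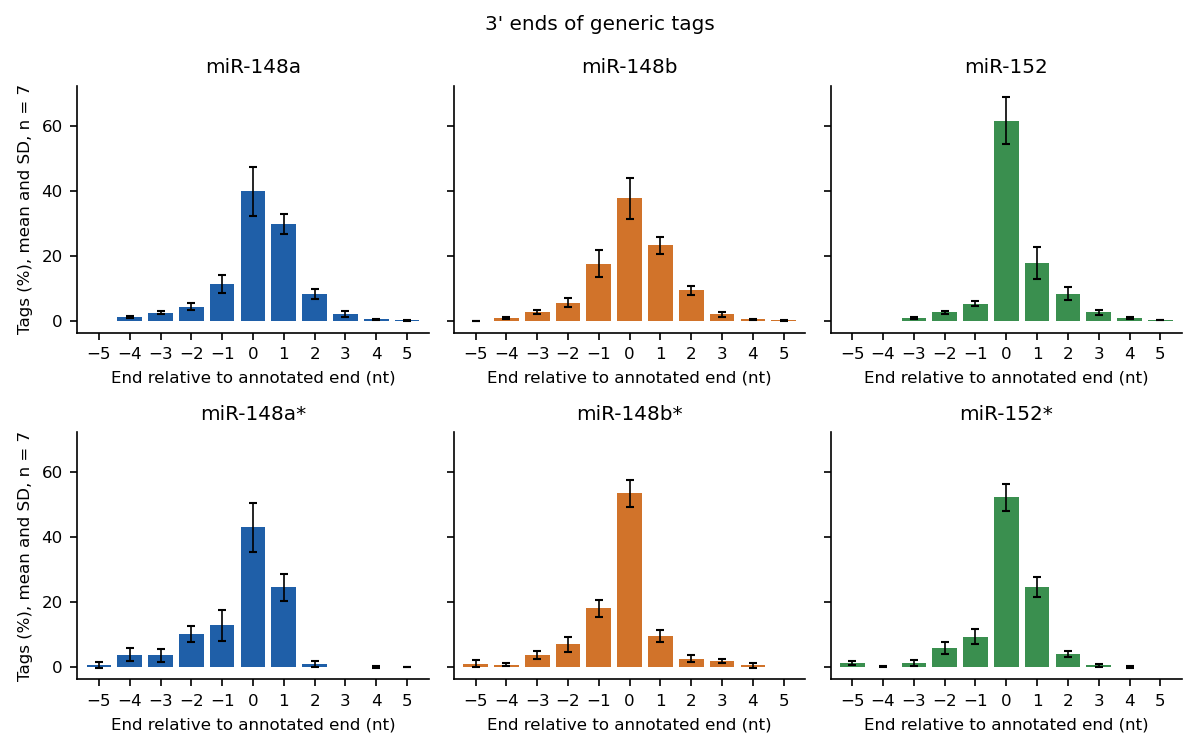
Position of the last base of generic tags relative to the annotated end (x axis, nt; positive is longer) as a percentage of each strand's tags (bars are means over 7 libraries and whiskers the SD). miR-148a lies mostly at the annotated end (39.9%) and the next base (29.8%). miR-148b is spread to both sides, with 17.6% 1 base shorter and 23.2% 1 base longer, while miR-152 has 1 dominant end.

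The mean tag was 22.2 ± 0.088 nt long for miR-148a, 22.1 ± 0.107 nt for miR-148b and 21.3 ± 0.126 nt for miR-152 (SD, n = 7), on annotated lengths of 22, 22 and 21 nt. Within libraries miR-148a was longer than miR-152 by 0.878 ± 0.119 nt, miR-148b longer than miR-152 by 0.770 ± 0.126 nt and miR-148a longer than miR-148b by 0.108 ± 0.072 nt, each in 7 of 7 libraries (exact sign-flip permutation p = 0.0156, adjusted p = 0.0167). The passenger strands averaged 21.7 nt for miR-148a*, 23.6 nt for miR-148b* and 23.8 nt for miR-152*.

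The 3′ isomiR share of all 3 mature strands was lower on day 4 than on day 1 in both time courses. It was 58.1% and 51.9% on day 4 for miR-148a, against 64.7% and 72.8% on day 1. It was 58.5% and 54.2% for miR-148b, against 69.7% and 69.9%, and 35.1% and 28.6% for miR-152, against 43.4% and 42.8%. In log2 odds these differences were -0.86 ± 0.33, -0.84 ± 0.25 and -0.70 ± 0.34 (SE), with limma's adjusted p at 0.549, 0.481 and 0.586, against a median of -0.084 over 297 strands. limma called 0 of 6 members and 0 of 297 strands (0%), with 24 at an unadjusted p under 0.05, miR-148a and miR-148b among them. How many of the 297 strands had a lower share on day 4 in both time courses was not counted.

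Tags with 1 changed base made up between 5.31% (miR-148a) and 8.39% (miR-148a*) of the tags of a strand. The commonest changes in miR-148a were U18C with 1.59% and U18A with 0.904% of its tags, and in miR-152 U18C with 1.69% and A16G with 1.16% (the reference base first, positions from 1 at the 5′ end). miR-148b carried C10G, the base that miR-152 has at that position, in 98 tags (0.939%). Changes of the last base made up 0.0477% of miR-148b tags, 0.00182% of miR-152 tags and 0% of the other strands' tags. The tags that matched 2 members equally well, and were divided between them, numbered 12 on mmu-mir-148a, 65 on mmu-mir-148b and 53 on mmu-mir-152, so the near identity of the members left few tags without a clear place.

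The seed CAGUGCA was also counted in all tags of the files. It stood at bases 2 to 8 in 0.242% ± 0.0809 of library tags (SD, n = 7), and 96.8% of these 98904 tags were on the family's hairpins. Most others were 5′ isomiRs of a related pair of miRNAs. The miR-130a hairpin gave 2015 such tags and miR-301a's gave 904, all starting 1 nt before the annotated start, which were 0.356% and 0.0572% of those miRNAs' own 3′ arm tags.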

How the data were processed

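For each of 7 libraries the authors deposited distinct tag sequences with raw counts, not normalized, of tags they had mapped with the SOLiD Small RNA Pipeline to miRBase 16 hairpins (genome build of the labels mm9). Small RNA had been isolated with TRIzol, enriched by flashPAGE and prepared with the SOLiD Small RNA Expression Kit. Only hairpin tags are in these counts, so totals are not sequencing depth. Here tags of at least 16 nt were placed on 1222 hairpins (RefSeq and GENCODE M21, GRCm38) with at most 2 mismatches, and a tag with several best hits was divided equally. Of all tags 92.8% matched exactly, 6.77% with 1 mismatch and 0.342% were not placed, and 101 lines without a sequence (293 tags) were left out. Annotated starts and ends came from RefSeq. Their 6 strands all matched.

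Counts per strand were compared with edgeR 4.0.16 (quasi-likelihood test, TMM, filterByExpr, day as a factor; the common biological coefficient of variation was 0.394 and the fit left 3 residual degrees of freedom). The SE of a log2 fold change was derived from the F statistic. Shares were compared with limma 3.58.1 on log2 odds (pseudocount 0.5) for hairpins or strands that reached 50 tags per library and 10 tags of each outcome. The threshold was an adjusted p of 0.05. DESeq2 1.42.0, R 4.3.3, Python 3.11.15 and RNAfold 2.7.2 were also used. Differences within libraries were tested by exact sign-flip permutation. Libraries of the same time course deviated together (r = 0.444, 0.42 and 0.366 for the 3 pairs of days over 580 strands), and the shared number was read as the repeat of the culture, which the labels do not state, so time course was added as a block in an alternative fit. Other settings were the normalization, the filter, the mismatches, shared tags, the start window, the pseudocount, the annotated or most frequent start and end, and each library left out. Scripts were tested on simulated data. All 6 strands, the 3 most similar profiles of each mature strand and a list of miRNAs aimed at DNA methyltransferases were described. The members and lists were chosen with earlier results of these data known.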

Additional observations from a re-analysis of the deposited data

Results flagged for a closer look

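The day 4 over day 1 ratio had opposite signs in the 2 time courses for miR-148a*, at a log2 ratio of 0.013 in time course 2 and -0.608 in time course 1. The same held for miR-152*, at 0.079 in time course 2 and -0.346 in time course 1. The difference between the time courses was not tested for either strand.

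IsomiR shares, day 4 minus day 1, also took opposite signs in the 2 time courses. The 5′ isomiR share moved by -0.138 percentage points in time course 1 for miR-148a, by -0.278 points for miR-148b and by -0.636 points for miR-148b*, while it was higher on day 4 in time course 2. The 3′ isomiR share of miR-148a* moved by -1.24 points in time course 1 and that of miR-148b* and miR-152* by 6.59 and 2.15 points, with the opposite sign in time course 2. These differences between the time courses were not tested.

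A few tags fell outside the start windows of both strands and enter none of the comparisons. There were 94 on mmu-mir-148a, 69 on mmu-mir-148b and 26 on mmu-mir-152 over the 7 libraries, above the limit of 3 that a count of 0 allows. On mmu-mir-148b 22 of them began at base 30 of the hairpin.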

How the results depend on the processing

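No alternative placed a member past the threshold between days, and the 15 comparisons within libraries kept their direction and their side of the threshold in every setting run. For a difference positive in 7 of 7 libraries, leaving out 1 library could change neither, so those runs are no check of it. Over all settings 801 values stayed in place, 35 changed sign, 21 counts of calls moved and 6 values passed the threshold only in the alternative setting. The count of all strands called was 6 on day 4, 9 on day 3, 3 on day 2 and 74 between time courses with no filter on low counts. It was 5, 4, 1 and 43 with DESeq2. Between time courses it was 35 with at most 1 mismatch, 35 with shared tags left out and 37 with all tags of an arm, and between 0 and 65 with 1 library left out, when the members called ran between 0 and 3. With 1 library left out it was 0 to 1 on day 3. With day as a number 1 strand was called. With the time course as a block limma called the 5′ arm to 3′ arm odds of 2 hairpins, and the block (miR-148a, day 4: log2 1.5, edgeR adjusted p = 0.103) changed no call of a member.

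Signs reversed mostly where values lay near 0. miR-148a* on day 3 was 0.0017 with no filter, 0.0074 with no mismatch, 0.032 with at most 1 mismatch, 0.020 with all arm tags and 0.055 with the block. miR-152* on day 4 was -0.14 with library totals and -0.0047 between time courses with DESeq2. miR-148b* was -0.14 on day 2 with the block and 0.00098 per day with day as a number. The 5′ share of miR-148a was 0.0093 with no mismatch. With 1 library left out, log2 values on days 4, 3 and 2 ran from -0.55 to 0.39, -0.42 to 0.52 and -0.71 to 0.26 for miR-148a*, and on days 4 and 3 from -0.22 to 0.11 and -0.30 to 0.61 for miR-148b*. They ran from -0.051 to 0.20 on day 4 and -0.054 to 0.19 between time courses for miR-152*, from -0.076 to 1.04, -0.047 to 0.83 and -0.37 to 0.83 on day 2 for miR-148a, miR-148b and miR-152, and from -0.017 to 1.31 on day 3 for miR-152. Log2 odds ran from -0.19 to 0.17, -0.32 to 0.83 and -0.85 to 1.40 for the 5′ shares of miR-148a, miR-148b and miR-148b*, and from -0.17 to 0.52, -0.22 to 0.49 and -0.51 to 0.13 for the 3′ shares of miR-148a*, miR-148b* and miR-152*. The cause of these changes was not tested.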
